A study of Mus musculus with 12 samples.

Results

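Genes known as targets and feedback regulators of bone morphogenetic protein (BMP) and transforming growth factor beta (TGF-β) signalling were followed in the mouse small intestine before and 3 h after surgical handling of the gut. They were read in a pull-down of ribosomes aimed at enteric glia. The group held 8 genes, chosen by name with earlier results of these data known: Id1, Id2, Id3, Id4, Smad6, Smad7, Tmem100 and Tgfb1. All 8 were among the 12975 genes of the counts table. Id3 was the member that stood out. It rose in the pull-down aimed at glia, which also held mRNA of other cells, and no change was detected in the control pull-down of the same animals. It was below the control in each of 3 animals before handling and above it in each of 3 different animals after. In the latter the control rested on 7 to 30 counts per library.

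The RiboTag mice were labelled PLPCreERT2 Rpl22HA, and the tagged allele came from the strain B6J.129(Cg)-Rpl22tm1.1Psam/SjJ. In these mice a tamoxifen-activated Cre, driven by a glial promoter, puts a haemagglutinin (HA) tag on the ribosomal protein Rpl22, so that anti-HA beads pull down ribosome-bound mRNA of the cells in which that promoter is active, known in the muscularis mainly as enteric glia. All groups carried both alleles and received 2 intraperitoneal injections of tamoxifen, each of 100 µl at 15 mg/ml, the first at 10 to 12 weeks of age, and tissue was taken 3 to 4 weeks after that first injection. T0 mice were naive and T3 mice were killed 3 h after intestinal manipulation, so anaesthesia, laparotomy and manipulation cannot be told apart. The muscularis homogenate of each of the 6 animals was split between HA beads and isotype control (IgG) beads, which gave 4 groups of 3 libraries (HA T0 and IgG T0 from animals 1, 2 and 4; HA T3 and IgG T3 from animals 1, 3 and 4, which are different mice). IgG libraries hold mRNA that binds to beads without the tag.

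Ligands of this family bind pairs of type I and type II receptor kinases, which phosphorylate Smad proteins that enter the nucleus and switch on target genes. Id1, Id2, Id3 and Id4 are classical targets of the BMP arm. Their proteins have a helix-loop-helix domain but no DNA-binding region, and they capture partner transcription factors and hold back differentiation. Smad6 and Smad7 are inhibitory Smads that the pathway induces and that then shut its receptors down. Tmem100 is a membrane protein induced by BMP signalling in endothelium, and Tgfb1 is a ligand that is secreted in a latent form. Glia and neurons of the adult gut use BMP and TGF-β signals in their maturation and in their exchange with macrophages and muscle.

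Depth differed between pull-downs. HA libraries held 1221788 to 2870591 counts, IgG T0 libraries 388214 to 1289833 and IgG T3 libraries 88136 to 248522. A count of 0 allowed a level of up to 34.0 counts per 1000000 (CPM, relative to all counts of a library) in the shallowest library, where 3 counts is the limit, and these limits cover counting error only. The summed level of 8 glial markers was 3536 to 4323 CPM in HA T0, 4346 to 5022 in HA T3, 170 to 219 in IgG T0 and 221 to 942 in IgG T3. The higher sum in HA T3 rested on Gfap, a filament gene of reactive glia, which went from 118.3 ± 19.7 to 1715 ± 225.5 CPM. Without it the sum of the other 7 was 3927 ± 422.0 CPM in HA T0 and 2965 ± 338.9 CPM in HA T3 (SD, n = 3 each). At T0 all 8 were enriched by the HA beads, and at T3 7 of 8 were (edgeR). HA libraries were not pure: 10 smooth muscle markers summed to 16952 to 32235 CPM in them, and 4 markers of interstitial cells of Cajal also summed to more in HA T0 (2741 to 3485 CPM) than in IgG T0 (254 to 356 CPM).

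The upstream regions of the members are shown because Smad proteins bind 2 kinds of letters there. These are GTCT (read as AGAC on the other strand), whose inverted repeat is GTCTAGAC, and the GC-rich GGCGCC. RefSeq windows of 300 bases (250 before the transcription start and 50 from it, GRCm38.p6) were at hand for 5 members, Id2, Id3, Id4, Smad6 and Tgfb1. Capitals mark the match, and each line is read 5′ to 3′ on the gene's strand.
Id3, position -166, chr4:136143643-136143672 (+): tgtcctcggcgtcAGACcagcctaaggaag
Id3, position -68, chr4:136143741-136143770 (+): tggacccttggcgGTCTgttttgaataagg
Id3, position 22, chr4:136143830-136143859 (+): tgctgctttaggtGTCTcttttcctccctc
Id2, position -231, chr12:25096306-25096335 (-): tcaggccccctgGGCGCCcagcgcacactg
Id2, position -23, chr12:25096099-25096128 (-): gagtgcacataaaAGACgccccgcccggct
Id4, position -148, chr13:48260956-48260985 (+): ctcgggttgcccGGCGCCccgccctcgcca
Smad6, position -4, chr9:64022045-64022074 (-): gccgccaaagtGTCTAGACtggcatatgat
Tgfb1, position -105, chr7:25686884-25686913 (+): cacgctaagatgaAGACagtgcccccccat
Positions count from the RefSeq start, and the matched letters begin there. Id3 had 3 GTCT matches and no GGCGCC, Id2 had 1 of each, Id4 had GGCGCC only and Tgfb1 had GTCT only. In Smad6 the inverted repeat spans the start itself. GTCT was present in 88.0% of 32851 RefSeq windows of this length, GGCGCC in 11.9% and GTCTAGAC in 0.213%. The cyclic AMP response letters TGACGTCA, present in 1.79% of windows, were found in none of the 5. The Id3 and Id2 stretches lie inside the genes as GENCODE places them (Id3 at chr4:136143497-136145755, Id2 at chr12:25093799-25097140), the Smad6 stretch crosses the gene's start (chr9:63953076-64022059), and those of Id4 (chr13:48261228-48266026) and Tgfb1 (chr7:25687002-25705077) lie upstream of the gene. Id1 is at chr2:152736251-152737410 and Tmem100 at chr11:90030348-90036508. Reads were counted near the 3′ end of each gene, and no other annotated gene lies in the counting window of any member.

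The first question was what happens to these genes in the HA pull-down after manipulation. Of the 8 members, Id3, Smad7 and Tgfb1 rose and Tmem100 fell, and Id1, Id2, Id4 and Smad6 did not pass the test (edgeR's quasi-likelihood test with Benjamini-Hochberg adjustment over all genes, threshold 0.05). That is 4 of 8, against a background of 33.8% of 9441 genes (18.7% higher and 15.1% lower). The median change of the members was 0.21 on the log2 scale, against -0.02 for all genes tested.

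Id3 was measured at 83.3, 71.0 and 74.9 CPM in HA T0 and at 290.6, 412.6 and 340.2 CPM in HA T3. The HA T3 libraries lay far above the HA T0 libraries with no overlap. In CPM 4 of the 8 members had groups that did not overlap (Id3 and Smad7 higher, Smad6 and Tmem100 lower), against 50.8% of all genes tested. The mean was 76.4 ± 6.31 CPM at T0 and 347.8 ± 61.4 CPM at T3 (SD, n = 3 each). The fitted log2 change was 2.45 (SE 0.19, adjusted p = 4.78e-09, edgeR), the 107th smallest p of 9441. The fitted fold of 5.46 exceeds the ratio of the CPM means, 4.55, because the fit scales libraries by trimmed means (TMM), whose factors were 0.900 to 0.926 in HA T3 and 1.06 to 1.15 in HA T0. Scaling by total counts alone put the median over all genes at -0.29 and Id3 at 2.18.

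**Figure D1:**
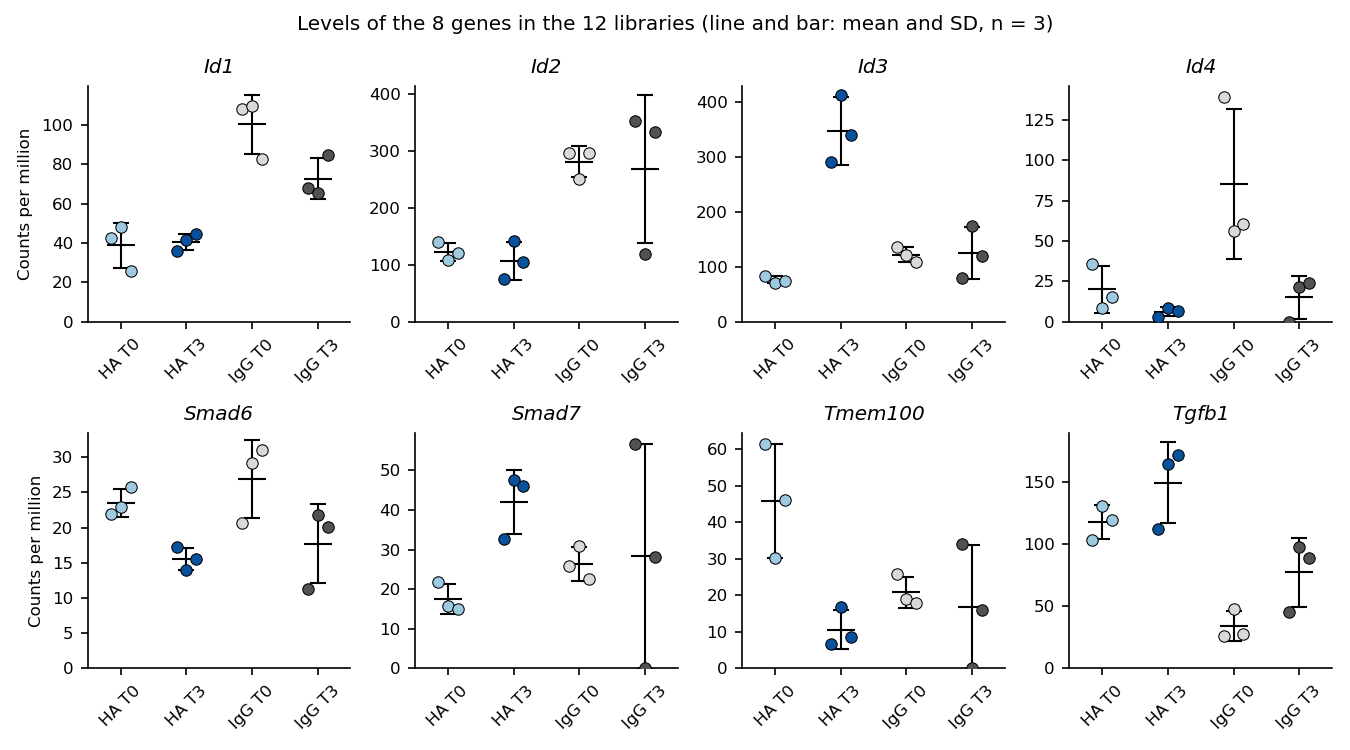
CPM (linear axes from 0, one scale per gene) of the 8 genes in each of the 12 libraries, by antibody and time. Points are libraries, the line and bar are the mean and SD of 3 libraries. In the Id3 panel the HA T3 libraries (290.6 to 412.6 CPM) lie above all others, while in the Tmem100 panel HA T0 (30.2 to 61.4 CPM) lies above HA T3 (6.55 to 16.7 CPM).

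The other inhibitors of helix-loop-helix factors did not follow Id3. Id1, which shares BMP induction with it, was measured at 42.6, 48.1 and 25.8 CPM in HA T0 and at 36.0, 41.5 and 44.4 CPM in HA T3. These groups overlapped, and the log2 change was 0.34 (SE 0.26, adjusted p = 0.325, edgeR). Id2, known for holding back lineage choice in neural crest and immune cells, was measured at 139.4, 107.8 and 120.9 CPM in HA T0 and at 74.5, 141.8 and 105.1 CPM in HA T3. The T3 libraries spread on both sides of those of T0, and the log2 change was 0.07 (SE 0.22, adjusted p = 0.826, edgeR), with a sign that turned under total-count scaling (-0.20). Id4, which is prominent in neural stem cells, was measured at 36.1, 8.38 and 15.7 CPM in HA T0 and at 3.27, 8.69 and 7.01 CPM in HA T3. HA T0 animal 2 lay within the T3 range, and the log2 change was -1.40 (SE 0.58, adjusted p = 0.0887, edgeR). Without that animal's library the change was -1.74 (adjusted p = 0.00809, edgeR), with total-count scaling -1.66 (adjusted p = 0.0262, edgeR) and with DESeq2 -1.41 (adjusted p = 0.0441). Id4 passed under only 4 of 13 alternatives, with changes from -1.96 to -0.65 and adjusted p up to 0.292 (edgeR).

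The make-up of the Id family therefore differed between the times. Each count stands for 1 captured 3′ end, and shares are compared for the same gene between libraries, not between genes. In HA T0 libraries Id3 made up 27.6, 30.2 and 31.6% of the summed Id1 to Id4 counts, and in HA T3 libraries 71.9, 68.3 and 68.5%. The mean share was 29.8 ± 1.99% at T0 and 69.5 ± 2.02% at T3 (SD, n = 3 each). The share of Id2 went from 47.7 ± 2.84% to 21.0 ± 2.52%, that of Id1 from 15.1 ± 4.86% to 8.23 ± 1.19% and that of Id4 from 7.38 ± 4.26% to 1.22 ± 0.36%. The summed level of the family was 258.0 ± 37.6 CPM in HA T0 and 501.9 ± 100.2 CPM in HA T3 (SD, n = 3 each). In IgG libraries the Id3 share was 19.8 to 22.6% at T0 and 15.9 to 45.7% at T3, and the highest T3 value rested on 16 of 35 counts (exact 95% binomial interval 28.8 to 63.4%). The shares were not tested.

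**Figure D2:**
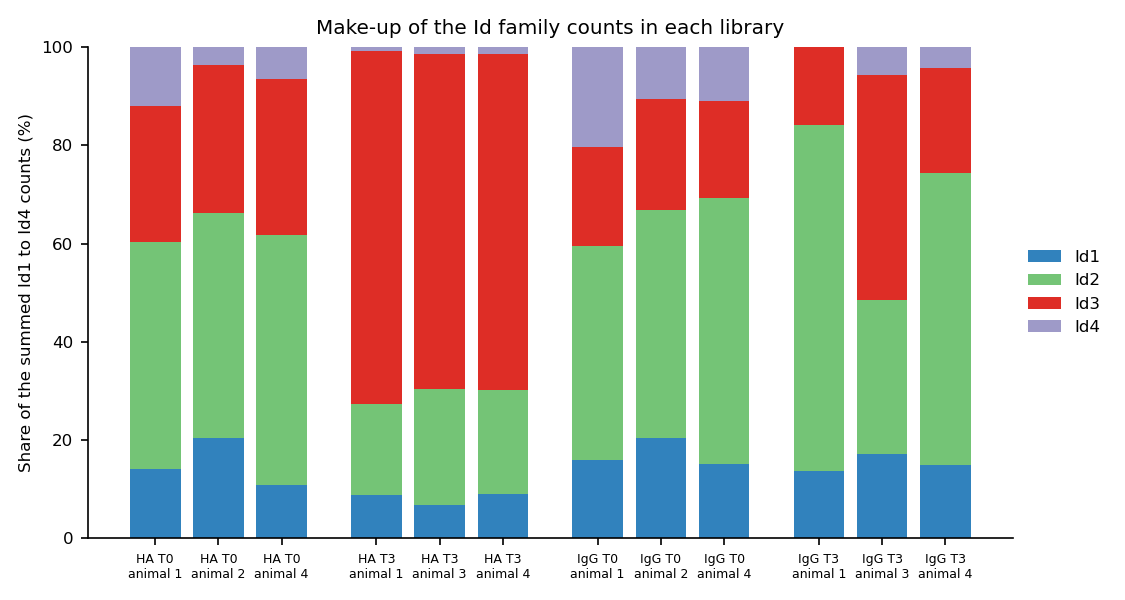
Share (%) of Id1, Id2, Id3 and Id4 in the summed counts of the family, one stacked bar per library, by antibody, time and animal. Id3 makes up 27.6 to 31.6% of the bar in HA T0 and 68.3 to 71.9% in HA T3, and the IgG T3 bars (35 to 140 counts) spread from 15.9 to 45.7%.

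The pair of inhibitory Smads differed in whether they passed the test. Smad7, which blocks both TGF-β and BMP receptors, was measured at 21.9, 15.6 and 15.0 CPM in HA T0 and at 32.7, 47.5 and 45.9 CPM in HA T3. All T3 libraries were above all T0 libraries, and Smad7 rose, with a log2 change of 1.52 (SE 0.26, adjusted p = 0.000169, edgeR). Smad6, which acts mainly on BMP receptors, was measured at 21.9, 22.9 and 25.8 CPM in HA T0 and at 17.2, 14.0 and 15.6 CPM in HA T3. The T3 libraries were below those of T0 in CPM, yet the fitted log2 change was -0.33 (SE 0.27, adjusted p = 0.362, edgeR) and passed under none of 13 alternatives. The difference between the changes of Smad7 and Smad6 was not tested.

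Tmem100 was the only member whose fall passed the test. It was measured at 61.4, 30.2 and 46.0 CPM in HA T0 and at 6.55, 16.7 and 8.56 CPM in HA T3, with no overlap. The log2 change was -1.82 (SE 0.35, adjusted p = 0.00069, edgeR), and the ratio of the means was 4.32 in favour of T0. Marker lists of several other cell types were also lower in HA T3. The sum of 7 mesothelial markers was 196 to 259 CPM in HA T0 and 27.3 to 36.8 CPM in HA T3, that of 8 fibroblast markers 1057 to 1392 and 312 to 546 CPM, and that of 4 markers of interstitial cells of Cajal 2741 to 3485 and 1216 to 1588 CPM. The sum of 11 neuronal markers was higher on average, at 1091 to 1295 CPM in HA T0 and 1210 to 2125 CPM in HA T3, with overlap. Of 10 neuronal markers tested 3 were called higher (edgeR), against 18.7% of all genes, and none lower. No marker of these lists was at 0 in all HA libraries of a time. The part of these cell types in the changes of Id3, Smad7 and Tmem100 was not tested. In bulk libraries fewer cells of a type and less RNA per cell cannot be told apart.

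Tgfb1 was measured at 103.3, 130.2 and 119.1 CPM in HA T0 and at 112.1, 164.5 and 171.3 CPM in HA T3. HA T3 animal 1 lay inside the T0 range. The log2 change was 0.62 (SE 0.20, adjusted p = 0.019, edgeR), the smallest of the called changes. The call was absent with total-count scaling (0.35, adjusted p = 0.159, edgeR) and in 4 more of 13 alternatives, among them those without HA T0 animal 1 or 4 or HA T3 animal 4.

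Endothelium is a known site of Id and Tmem100 expression, so its markers were read beside these results. Of 13 endothelial markers 12 were in the table, Erg being the one missing, and none was at 0 in all HA libraries of a time. Their sum was 63.7 to 100.6 CPM in HA T0 and 64.6 to 70.2 CPM in HA T3. Of the 5 tested in HA, Cldn5 rose (log2 change 2.42, adjusted p = 2.7e-05, edgeR) and the other four did not pass. Without Cldn5 the sum of the other 11 was 72.0 ± 20.0 CPM in HA T0 and 44.6 ± 8.74 CPM in HA T3 (SD, n = 3 each). The part of endothelium in the changes of Id3, Smad7 and Tmem100 was not tested.

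The second question was whether the control pull-down changed as well. In IgG libraries 5 members had enough counts to be tested and none passed with edgeR, against a background of 5.46% of 5219 genes (4.43% higher and 1.03% lower). With an unadjusted p under 0.05 there were 2 of 5, Id4 and Tgfb1, against 21.1% of all genes tested. DESeq2 called 1 of the 5, Id4, against 6.02% of the 5212 genes to which it gave an adjusted p.

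Id3 was measured at 136.5, 121.7 and 108.5 CPM in IgG T0 and at 79.4, 173.9 and 120.7 CPM in IgG T3. The T3 libraries lay on both sides of the T0 libraries, and rested on 7, 16 and 30 counts. The log2 change was 0.02 (SE 0.35, adjusted p = 0.983, edgeR), and its sign turned in 8 of 13 alternatives. Id1 (-0.41, SE 0.36, adjusted p = 0.557, edgeR) and Id2 (-0.05, SE 0.36, adjusted p = 0.95, edgeR) did not pass either.

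Id4 was measured at 139.1, 56.6 and 60.5 CPM in IgG T0 and at 0, 21.7 and 24.1 CPM in IgG T3, where it had 0, 2 and 6 counts. The T3 libraries were below those of T0 in CPM, which made Id4 the 1 of 5 without overlap (26% of all genes tested), and the log2 change was -2.18 (SE 0.66, adjusted p = 0.0753, edgeR). DESeq2 gave -2.28 (adjusted p = 0.0479), and the fit without a filter on low counts -2.29 (adjusted p = 0.00417, edgeR). Only 3 of 13 alternatives passed, with adjusted p up to 0.166 (edgeR). Tgfb1 was measured at 25.8, 48.0 and 27.9 CPM in IgG T0 and at 45.4, 97.8 and 88.5 CPM in IgG T3, with a log2 change of 1.23 (SE 0.44, adjusted p = 0.128, edgeR). Smad6 (1, 2 and 5 counts), Smad7 (5, 0 and 7 counts) and Tmem100 (3, 0 and 4 counts) were too low in IgG T3 to be tested, and no change in them was detectable at this depth.

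**Figure D3:**
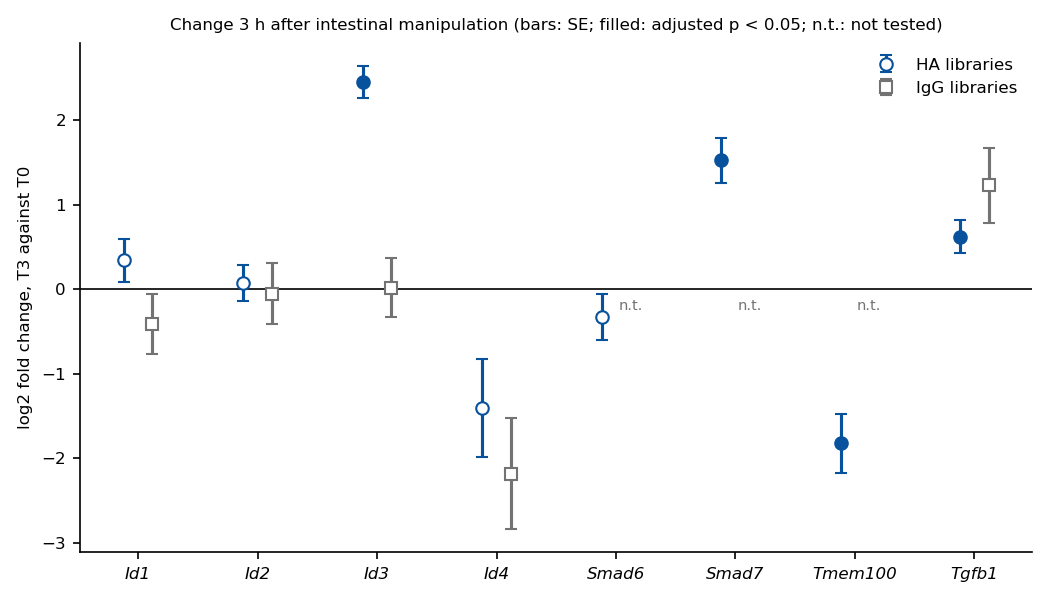
Fitted log2 fold change from T0 to T3 in HA libraries (circles) and IgG libraries (squares), with bars of 1 SE; filled symbols passed an adjusted p of 0.05, and n.t. marks genes too low to test. Id3 is at 2.45 in HA and at 0.02 in IgG, Smad7 at 1.52 and Tmem100 at -1.82 in HA, and no IgG symbol is filled.

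The change itself was then compared between pull-downs in a fit of all 12 libraries with an interaction of antibody and time. Id3 was the only member to pass. Its log2 change was larger in HA than in IgG, the difference being 2.51 (SE 0.37, adjusted p = 0.00112, edgeR), the third smallest p of 10314 genes, of which 0.33% passed (0.301% higher and 0.0291% lower). The call held under all 18 alternatives (2.15 to 2.65). With TMM scaling the median of all genes was 0.18 in this comparison and with total counts -0.18, under which Id3 was at 2.15. The difference was 1.49 for Smad7 (SE 0.63, adjusted p = 0.4, edgeR), -1.45 for Tmem100 (SE 0.85, adjusted p = 0.574, edgeR), -0.54 for Tgfb1 (SE 0.44, adjusted p = 0.716, edgeR) and 0.82 for Id1 (SE 0.44, adjusted p = 0.539, edgeR). Those of Id2 (0.20, SE 0.41), Id4 (0.85, SE 1.07) and Smad6 (0.33, SE 0.60) did not pass either. The changes of Smad7, Tmem100 and Tgfb1 in HA are thus not shown to differ from those in IgG.

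The third question was how the HA pull-down compares with the control pull-down before manipulation. At T0 the Id family was lower in HA than in IgG and Tmem100 and Tgfb1 were higher. That made 6 of 8 members called, against a background of 30.3% of 9823 genes (16% higher and 14.4% lower). In CPM the pull-downs did not overlap for 7 of 8, all but Smad6, against 44.8% of all genes tested.

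Id1 was measured at 108.2, 109.7 and 83.0 CPM in IgG T0, above each HA T0 library, with a log2 difference of -1.38 (HA minus IgG, SE 0.28, adjusted p = 0.00201, edgeR). Id2 was measured at 296.2, 250.3 and 296.9 CPM in IgG T0 and was lower in HA by -1.22 (SE 0.20, adjusted p = 0.000408, edgeR). Both calls held under all 13 alternatives. Id3 (-0.69, SE 0.21, adjusted p = 0.0219, edgeR) passed in 9 of 13 and Id4 (-2.02, SE 0.60, adjusted p = 0.0417, edgeR) in 7 of 13 alternatives, though neither overlapped between the pull-downs at T0. With the HA and IgG libraries of an animal as a block both passed (adjusted p = 0.00633 for Id3 and 4.54e-07 for Id4, edgeR). Within animals both were lower in HA in all 3. The Id3 call was absent without IgG T0 animal 1 or HA T0 animal 2 or 4 (adjusted p 0.0609 to 0.0787, edgeR). The Id4 call was absent without HA T0 animal 4, whose loss gave the highest value (adjusted p = 0.125, edgeR), and without any one of the 3 IgG T0 libraries. Smooth muscle (21382 to 32235 against 62780 to 82404 CPM), fibroblast (1057 to 1392 against 2912 to 3140) and mesothelial marker sums (196 to 259 against 618 to 1197) were likewise lower in HA than in IgG at T0, with none of their markers at 0 in all libraries of a group. So was the endothelial sum (63.7 to 100.6 against 128.8 to 164.6 CPM), where Vwf and Egfl7, 2 of the 5 markers tested, were called lower. The sums of 11 neuronal (1091 to 1295 against 1467 to 3284 CPM), 7 epithelial (53.3 to 289.4 against 359.7 to 730.2) and 10 macrophage markers (432.7 to 762.7 against 726.5 to 1090, with overlap) were also lower on average. Their part in the Id differences was not tested.

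Tgfb1 was higher in HA T0 by 1.77 (SE 0.26, adjusted p = 0.000204, edgeR) and in all 3 animals, by a ratio of 2.71 to 4.27. Tmem100 was measured at 25.8, 18.9 and 17.8 CPM in IgG T0, and was higher in HA by 1.18 (SE 0.34, adjusted p = 0.0173, edgeR) and in all 3 animals. Its call was absent without HA T0 animal 1 (adjusted p = 0.093, edgeR) or IgG T0 animal 4 (adjusted p = 0.0824, edgeR). Smad6 (-0.27, SE 0.29, adjusted p = 0.509, edgeR) and Smad7 (-0.58, SE 0.33, adjusted p = 0.198, edgeR) did not pass.

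At T3 the sign of Id3 was the other way round. Id3 was higher in HA T3 than in IgG T3 by 1.57 (SE 0.31, adjusted p = 0.00119, edgeR) and Tgfb1 by 0.98 (SE 0.34, adjusted p = 0.048, edgeR), while Id2 was lower (-1.28, SE 0.35, adjusted p = 0.0134, edgeR). That made 3 of the 7 members tested, against a background of 21.9% of 7200 genes (11.8% higher and 10.2% lower). The pull-downs did not overlap in CPM for Id1, Id3 and Tgfb1, 3 of 7, against 35.8% of all genes tested. Within animals, the HA to IgG ratio of Id3 was 0.583 to 0.690 in the 3 T0 mice and 2.37 to 3.66 in the 3 T3 mice. The Id3 call held under all 13 alternatives. That of Tgfb1 held under 6 of 13 and was absent without IgG T3 animal 1 or 4 or HA T3 animal 3 or 4. That of Id2 held under 9 of 13 and was absent without animal 1 or 4 of either pull-down. Within animals Id2 was lower in HA in animals 1 and 4 (HA to IgG ratio 0.212 and 0.315) but higher in animal 3 (1.19). Id1 (-0.81, SE 0.36, adjusted p = 0.117, edgeR) was lower in HA in all 3 animals but did not pass. Smad6 (-0.18, SE 0.58), Smad7 (0.66, SE 0.55) and Tmem100 (-0.51, SE 0.75) did not pass, and Id4 was too low in IgG T3 to be tested.

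Ordered by mean level, Id3 ran from HA T3 (347.8 ± 61.4 CPM) through IgG T3 (124.7 ± 47.3) and IgG T0 (122.3 ± 14.0), which do not differ beyond their spread, to HA T0 (76.4 ± 6.31; SD, n = 3 each). Tgfb1 ran from HA T3 (149.3 ± 32.4) and HA T0 (117.5 ± 13.5), whose libraries overlap, through IgG T3 (77.2 ± 28.0) to IgG T0 (33.9 ± 12.3), whose libraries also overlap and whose difference did not pass. Tmem100 was highest in HA T0 (45.9 ± 15.6), and IgG T0 (20.8 ± 4.31), IgG T3 (16.7 ± 17.0) and HA T3 (10.6 ± 5.38) followed. The IgG T3 libraries span those of IgG T0 and HA T3. Smad7 ran from HA T3 (42.1 ± 8.10) through IgG T3 (28.3 ± 28.4) and IgG T0 (26.4 ± 4.22) to HA T0 (17.5 ± 3.81), and IgG T3 overlaps every other group.

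The rest of the pathway was read from lists of genes by role. These lists were chosen with earlier results of these data known, so their counts are description and no test. Among ligands, 6 of the 16 listed could be tested in HA, and from T0 to T3 1 rose and 3 fell. These and the following counts in HA stand beside the 18.7% of all genes that rose and the 15.1% that fell. Tgfb2 rose by 0.69 (adjusted p = 0.01, edgeR), from 88.9 ± 14.3 to 119.8 ± 27.8 CPM with overlap. Tgfb3 fell by 1.01, Gdf10 by 0.86 and Bmp7 by 0.69 on the log2 scale (adjusted p 0.000317 to 0.0301, edgeR). The call of Tgfb2 passed under 9 of 13 alternatives and that of Bmp7 under 8 of 13. Tgfb3 was at 158.3 ± 20.5 CPM in HA T0 and 65.5 ± 3.70 CPM in HA T3 (SD, n = 3 each). Before manipulation Bmp7 was the ligand with the largest excess in HA over IgG (65.3 ± 20.8 against 1.86 ± 1.94 CPM, log2 difference 4.59, adjusted p = 9.05e-06, edgeR), and Tgfb2 (1.95) and Tgfb3 (0.74) were also higher in HA, whereas Bmp4 was lower (-1.69, adjusted p = 0.000328, edgeR). Bmp7 had only 0 to 5 counts per IgG T0 library, so the size of its excess is uncertain.

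Of 9 receptors tested in HA, Acvr1, a type I receptor for BMPs, rose from 57.1 ± 5.76 to 112.5 ± 30.7 CPM (log2 change 1.24, adjusted p = 0.000113, edgeR). The TGF-β receptor genes Tgfbr2 and Tgfbr1 fell by 1.05 and 0.93 on the log2 scale (adjusted p 0.000795 and 0.00348, edgeR), Tgfbr1 from 62.1 ± 2.63 to 27.0 ± 4.95 CPM. Acvrl1 and Eng, which form a receptor pair for BMP9-type ligands upstream of Tmem100 in endothelium, were enriched in HA over IgG at T0 (2.91 and 2.46, adjusted p 1.44e-05 and 1.39e-06, edgeR). Eng was at 415.1 ± 24.9 CPM in HA T0 and 353.6 ± 39.0 CPM in HA T3, and neither gene passed between T0 and T3 in HA.

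Of the 6 signal-transducing Smads, Smad3 of the TGF-β arm rose by 1.88 (20.3 ± 7.66 to 61.9 ± 13.2 CPM, adjusted p = 2.27e-05, edgeR) and Smad9 of the BMP arm fell by 1.34 (18.9 ± 2.42 to 6.14 ± 2.49 CPM, adjusted p = 0.0071, edgeR). The other four did not pass. Among 10 extracellular antagonists tested, Fstl3, a binder of activin, rose from 179.8 ± 37.4 to 478.6 ± 81.6 CPM (1.67, adjusted p = 2.16e-06, edgeR). The BMP binders Twsg1 (-0.94) and Chrd (-1.14) fell (adjusted p 0.000545 and 0.0348, edgeR), the latter under 7 of 13 alternatives only. Sostdc1 was enriched in HA over IgG at T0 (4.44, adjusted p = 3.45e-06, edgeR), from 14.8 ± 6.18 CPM in IgG to 357.2 ± 129.7 CPM in HA, and Nog and Chrdl1 were lower (-1.39 and -1.18).

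Of 9 intracellular regulators tested, 6 rose and 1 fell, against 18.7% and 15.1% of all genes. In order of p these were the corepressors Tgif2 (1.89), Tgif1 (1.54), Skil (1.75) and Ski (0.65) and the ubiquitin ligase Smurf1 (0.79), with adjusted p from 3.03e-06 to 0.00809 (edgeR). Pmepa1, a feedback inhibitor of TGF-β signalling, was the sixth (0.81, adjusted p = 0.00902, edgeR). The libraries of Smurf1 and of Pmepa1 overlapped between the times, and their calls passed under 10 and 12 of 13 alternatives. The phosphatase Ppm1a fell by 1.00 on the log2 scale. The median of this list was 0.79, against -0.02 over all genes tested. In IgG libraries 5 genes of this list could be tested and none passed. None of the 10 tested for a difference between pull-downs passed (median 0.15, against 0.18 over all genes). Mean IgG levels were also higher at T3 for each regulator that rose in HA, but the IgG T3 means rest on few counts. Smurf1, at 24.5 ± 14.6 CPM in IgG T0 and 25.8 ± 34.7 CPM in IgG T3 (0 to 6 counts per library), did not differ beyond its spread. Tgif1 had 0 to 11 counts per IgG T3 library. Tgif2 went from 4.90 ± 2.21 to 26.7 ± 13.4 CPM in IgG, on 1 to 9 counts per library at either time. Pmepa1 went from 30.6 ± 7.23 CPM (12 to 30 counts) to 72.7 ± 23.1 CPM (6 to 13 counts). Of 10 genes of TGF-β activation, Thbs1 (1.78) and Ltbp1 (0.90) rose and Ltbp4 (-0.60) fell. The libraries of Ltbp1 overlapped between the times, and its call passed under 6 of 13 alternatives and that of Ltbp4 under 7 of 13. Thbs1, whose protein can release latent TGF-β, also rose in IgG (2.55, adjusted p = 0.00263, edgeR), from 43.1 ± 17.2 to 262.5 ± 146.8 CPM, and the difference between its changes in the pull-downs did not pass (-0.68, adjusted p = 0.736, edgeR). Of 5 basic helix-loop-helix genes that Id proteins can meet, Hes1 rose (0.96, adjusted p = 0.000795, edgeR), from 100.8 ± 26.5 to 163.7 ± 1.70 CPM, and 4 did not pass.

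**Figure D4:**
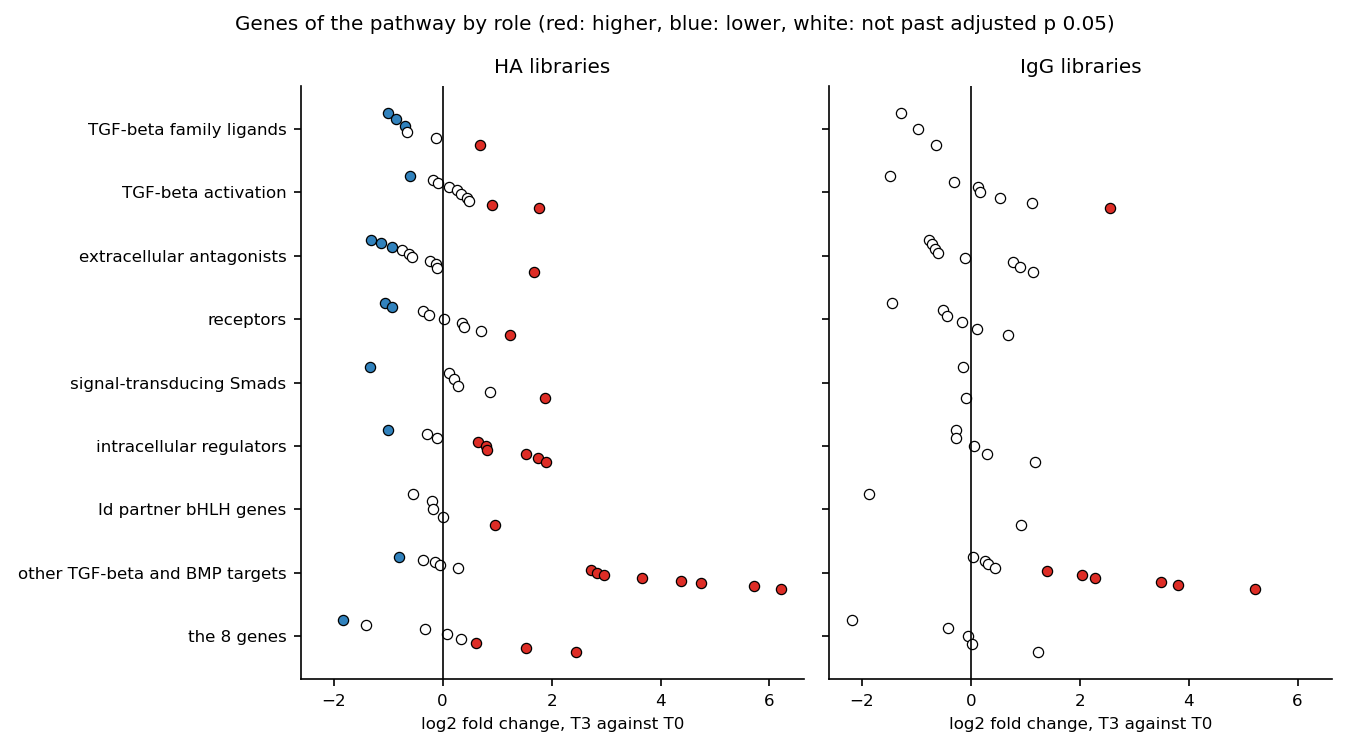
Fitted log2 fold change from T0 to T3 of every pathway gene with enough counts, grouped by role, in HA libraries (left) and IgG libraries (right). Each point is a gene, red passed the test as higher, blue as lower and white did not pass; Junb is at 5.72 in HA and 5.22 in IgG, and the 8 genes in the bottom row reach from -1.82 to 2.45 in HA.

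Other genes known to respond to TGF-β or BMP moved furthest. Of 13 tested in HA 8 rose and 1, Ctgf, fell (-0.79), against 18.7% higher and 15.1% lower over all genes, with a median of 2.84. This list too was chosen with earlier results known, so the count is no test of it. In order of p the first 4 to rise were Junb (5.72), Cdkn1a (4.37), Spsb1 (2.95) and Runx1 (4.75). Runx1 had only 2 to 4 counts per HA T0 library, so the size of its rise is uncertain. Junb, a subunit of AP-1, was at 29.2 ± 7.31 CPM in HA T0 and 1289 ± 217.5 CPM in HA T3. Cdkn1a, an inhibitor of the cell cycle, was at 60.9 ± 6.98 and 1048 ± 69.6 CPM. Most of these genes are also known to respond to inflammatory and stress signals. In IgG libraries 6 of 10 rose as well, against 4.43% of all genes, with Junb at 5.22, Cdkn1a at 3.48, Snai1 at 2.29 and Spsb1 at 2.03 (adjusted p 4.79e-07 to 0.0214, edgeR), and none fell. The Snai1 call passed under 6 of 13 alternatives and that of Sox4 in IgG under 9 of 13. Sox4, the sixth to rise in IgG (1.39, adjusted p = 0.0356, edgeR), was the only gene of these lists other than Id3 whose change passed the test of a difference between pull-downs.

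Between the pull-downs at T0, the roles split as follows. Of the tested genes, 3 of 6 ligands were higher in HA and 1 lower, 3 of 9 receptors higher, 1 of 6 signal-transducing Smads higher, 4 of 10 antagonists higher and 2 lower, and 3 of 9 intracellular regulators higher and 1 lower. Over all genes 16% were higher and 14.4% lower, so a count of 1 among 6 ligands, 6 Smads or 9 regulators is near the background. Beside those named above, Pmepa1 (3.51), Tgif2 (1.94), Ppm1a (0.56), Tgfbr2 (1.18), Smad5 (0.72), Nbl1 (1.18), Fstl3 (0.91), Ltbp3 (1.23), Ctgf (1.82), Tgfbi (0.72), Hes1 (1.58) and Hes6 (0.89) were higher in HA. Nedd4l, a ubiquitin ligase (0.251-fold), Ltbp2 (-1.91) and Tsc22d1 (-1.11) were lower (adjusted p 0.000384 to 0.00442, edgeR). Of the genes named for this comparison, Ppm1a passed under 5, Smad5 under 7 and Hes6 and Chrdl1 under 8 of 13 alternatives. Tgif2 had only 1 to 9 counts per IgG T0 library, so the size of its excess is uncertain.

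Between the pull-downs at T3, Cdkn1a (2.44-fold) and Sox4 (2.68-fold) were higher in HA (adjusted p 0.00307 and 0.00485, edgeR). So were, as log2 differences, Pmepa1 (2.97), Tgif2 (1.26), Fstl3 (1.64), Sostdc1 (3.02), Acvr1 (2.52), Eng (1.67), Tgfb2 (2.50), Nbl1 (0.99), Ltbp3 (1.48) and Hes1 (1.44). Grem1 (-2.56), Tsc22d1 (-1.43), Atoh8 (-2.05), Bmpr2 (-1.53, with overlapping libraries) and Tgfbr1 (-1.20) were lower. The calls of Tgif2 and Tgfbr1 passed under 5 of 13 alternatives each (adjusted p up to 0.0909 without HA T3 animal 1 and 0.444 without IgG T3 animal 4, edgeR), that of Bmpr2 under 9 of 13 and that of Atoh8 under 7 of the 10 that could test it. Bmp7, Acvrl1, Smad3 and Runx1 also passed as higher, but each had 3 or fewer counts in every IgG T3 library, so no fold is given. Few counts per IgG T3 library also lay behind Sostdc1 (0 to 5), Tgfb2 (1 to 6) and Acvr1 (0 to 7). The same holds for Tgif2 (1 to 9) and Atoh8 (2 to 6), so the sizes of these differences are uncertain. Over the alternatives Tgfb2 ranged from 1.69 to 3.86 and Acvr1 from 2.21 to 3.60.

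Genes whose level followed the members most closely were found by Pearson correlation of log2 CPM over the 12 libraries, among 10313 other genes. The libraries share animals, groups and depth, so these values describe the set and carry no test. Ezr (0.94), Syt6 (0.94) and S100a10 (0.94) were nearest to Id3, and Fam104a (0.98), Fndc4 (0.96) and Kank4 (0.95) to Tgfb1. Ybx1 (0.96), Met (0.93) and Rasa4 (0.92) were nearest to Id1, and Folr2 (0.96), Lpl (0.95) and Cd2ap (0.95) to Id2. For Smad7 they were Plce1 (0.96), Prkx (0.94) and Rhoq (0.94), and for Tmem100 Tada1 (0.94), Zbtb45 (0.93) and Timm17b (0.93). For Id4 they were 4831440E17Rik (0.95), Tma7 (0.94) and Rpl7 (0.94), and for Smad6 9130221H12Rik (0.93), Calml4 (0.92) and 1110032A03Rik (0.92). No member was among the nearest genes of another.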

How the data were processed

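RNA from HA and IgG pull-downs of muscularis homogenates was sequenced by the authors with a bulk MARS-seq protocol, in pools of up to 8 samples. Per the labels and methods, reads were trimmed with cutadapt, aligned to mm10 with STAR 2.4.2a and counted with HTSeq from 1000 bases upstream to 100 bases downstream of the annotated 3′ end, keeping unique molecular identifiers of uniquely mapped reads. The deposited values used here are raw UMI counts for 12975 genes. The submitters' processing notes also name DESeq2 1.26.0.

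Here counts were tested with edgeR 4.0.16 (R 4.3.3): TMM scaling, filterByExpr, robust quasi-likelihood F-tests and Benjamini-Hochberg adjustment over all genes tested, threshold 0.05. Contrasts between 2 groups used their 6 libraries and the interaction all 12. DESeq2 1.42.0 was an alternative, with other scalings, filters, a replicate block and each library left out. The procedure was tested on simulated data. Log2 CPM for correlations used a prior count of 2.

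HA and IgG libraries of one animal come from one homogenate. Their deviations from the group means correlated at 0.0887 to 0.273, against -0.191 to 0.00790 for other pairs of the same time. The same number at T0 and T3 is a different mouse. No pair of replicates agreed within sampling noise (chi-square per degree of freedom 3.16 to 9.18).

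The members and all gene lists were chosen with earlier results of these data known. In each contrast all members were named, and of each list the genes past the threshold, in order of p, up to 5 per direction, with exceptions said in the text. Gene positions are from GENCODE M21 (GRCm38) and promoter windows from RefSeq. Strand and position of Smad7 are not reported here. A few genes of the lists entered their counts but are not reported by name here.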

Additional observations from a re-analysis of the deposited data

Results flagged for a closer look

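Id3 was set apart because its change from T0 to T3 differed between the pull-downs by a test of the difference itself. The log2 change was larger in HA, the difference being 2.51 (SE 0.37, adjusted p = 0.00112, edgeR's interaction test). All 3 HA T3 libraries were above all 3 HA T0 libraries, whereas the IgG libraries of the times overlapped. Id3 in IgG T3 rested on 7 to 30 counts per library. The call held with each of the 12 libraries left out and with the HA and IgG libraries of an animal as a block (2.54, adjusted p = 4.76e-07).

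Sox4, a transcription factor gene from the list of other pathway targets, was set apart by the same test, at 2.34 (SE 0.44, adjusted p = 0.0156, edgeR). It was at 66.0 ± 12.3 CPM in HA T0 and 699.8 ± 259.2 CPM in HA T3, and at 104.1 ± 33.1 CPM in IgG T0 and 272.1 ± 75.7 CPM in IgG T3 (SD, n = 3 each). Unlike that of Id3, this call passed under 10 of 18 alternatives only.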

How the results depend on the processing

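Across 13 alternatives per comparison between groups and up to 18 for the interaction, 441 of 498 values for the members kept their direction and side of the threshold, 28 lost a call, 7 gained one and 22 changed sign. Of 1140 values for other pathway genes that passed, 1024 kept their call, 116 lost it and none changed sign. Of 1260 counts of genes per list and direction, 150 moved by more than 1.5 times.

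Counts of calls over all genes moved as follows, and the cause was not tested except where fewer genes or libraries entered. HA against IgG at T0 gave 2980, and 3807 with the replicate block and 2144 to 2949 with a library left out. HA against IgG at T3 gave 1578 (846 higher and 732 lower), and 849 to 1977 with a library left out. At T3 there were 1298 higher and 847 lower without a filter and 1220 and 834 with at least 5 counts in 1 library. The fit of all 12 libraries gave 1461 and 656 at T3. T3 against T0 in IgG gave 285, and 519 without a filter, 705 in the fit of all 12 libraries and 162 to 334 with a library left out. The interaction gave 34, and 20 with RLE scaling, 8 with total counts, 80 with DESeq2, 158 with the replicate block and 5 to 95 with a library left out. With total counts as scaling, 31.1% of the calls between T0 and T3 in HA were higher, against 55.4% with TMM (1202 higher and 2660 lower against 1765 and 1422). The fit of all 12 libraries put 69.0% of the calls between pull-downs at T3 on the higher side, against 53.6%.

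Every value that changed sign belonged to a member that did not pass. Smad6 in HA against IgG at T3 was 0.050 without a filter, 0.087 in the fit of all 12 libraries and -0.25 to 0.17 with a library left out, where Tmem100 ranged from -0.81 to 0.060. Id2 between T0 and T3 in HA was -0.20 with total counts, -0.27 with the replicate block, and -0.18 to 0.29 with a library left out. Id2 in IgG was 0.17 with the block and -0.37 to 0.27 with a library left out. Id3 in IgG was -0.10 without a filter, -0.066 with at least 5 counts in 1 library, -0.22 with the block, -0.054 in the fit of all 12 libraries, and -0.21 to 0.21 with a library left out. In the interaction, Id2 was -0.16 with total counts and -0.18 to 0.47 with a library left out, and Smad6 was -0.012 with total counts.

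The replicate block paired the HA and IgG libraries of an animal and changed no member's call between pull-downs or in the interaction. Between T0 and T3 it joined animals that share only a number, and there Id4 in HA passed (-1.96, adjusted p = 0.00189, edgeR) and the counts of calls were 3434 in HA and 289 in IgG. Same-numbered T0 and T3 libraries correlated at 0.157 and 0.0111 in HA and at 0.169 and 0.0116 in IgG.

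Depth limited the IgG T3 libraries, which had 88136 to 248522 counts. Members at a few counts there could not be tested or had wide errors.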
